A study of Mus musculus with 16 samples.

Results

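Mice fed a purified primate diet, the NIA formula, were compared with mice fed a standard laboratory chow by RNA sequencing of the heart. The comparison takes the 4 libraries titled NIA and the 4 titled chow, 8 of the 16 libraries of the series, by their titles and not by any measured value. All animals were male C57BL/6 mice, put on a diet at random at 6 weeks of age and kept on it for 6 months, and each library is 1 animal. Chow was Prolab IsoPro RMH 3000 (5P75) and the NIA formula was the primate diet 5L1F of LabDiet. The other 8 animals ate a second primate formula (UW) or an NIA formula changed to match the sucrose and fat of UW (mNIA), and serve here only to estimate the spread and as a reference for single genes. No genotype, transgene or drug separates the groups. The count columns carry the code CC for chow and MNC for NIA. Titles and diet labels give the groups, but the letters of the code could be read otherwise, and which primate formula these 4 animals ate rests on the titles.

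The ventricle wall is built of cardiomyocytes, which make most of its RNA, and of endothelial cells, pericytes, fibroblasts and resident macrophages. Cardiomyocytes draw most of their ATP from fatty acids oxidised in mitochondria and shift towards glucose, lactate or ketones as the diet and hormones allow, with nuclear receptors such as PPAR-alpha setting the level of the enzymes. Fibroblasts and vessel cells lay down interstitial collagen and the basement membrane around each myocyte, and more interstitial collagen is a mark of the ageing and overloaded heart. In RNA from whole tissue, fewer cells of a type and less RNA per cell cannot be told apart.

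The libraries of the comparison were of unequal depth. Totals ran from 4263827 to 5953964 counts in chow, while the NIA animals 1 to 4 had 3143385, 63005490, 5735110 and 2278250. NIA 2 thus held 27.7 times the counts of NIA 4, in which a single count is worth 0.711 CPM (scaled counts relative to library size) and 3 counts, taken as the floor of detection, are worth 2.13 CPM. Summed markers of cardiomyocytes, such as Myh6, Tnnt2 and Ryr2, were at 71409 to 97035 CPM in chow and 61204 to 142730 CPM in NIA, so the labelled tissue carried its markers in all 8 animals. Among 11281 genes that reached a mean of 5 CPM on NIA or chow, NIA 1 had 542 genes over 2-fold above and 1043 over 2-fold below the chow mean. NIA 2 had 12 and 25 such genes, NIA 3 had 29 and 129, and NIA 4 had 1694 and 2520. Most of the distance between the groups therefore lay in NIA 4 and NIA 1, the shallowest libraries, and each value below is given by animal. Among the chow animals, number 3 stood furthest from its group, with 124 genes above and 659 below the mean of the 4.

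**Figure D1:**
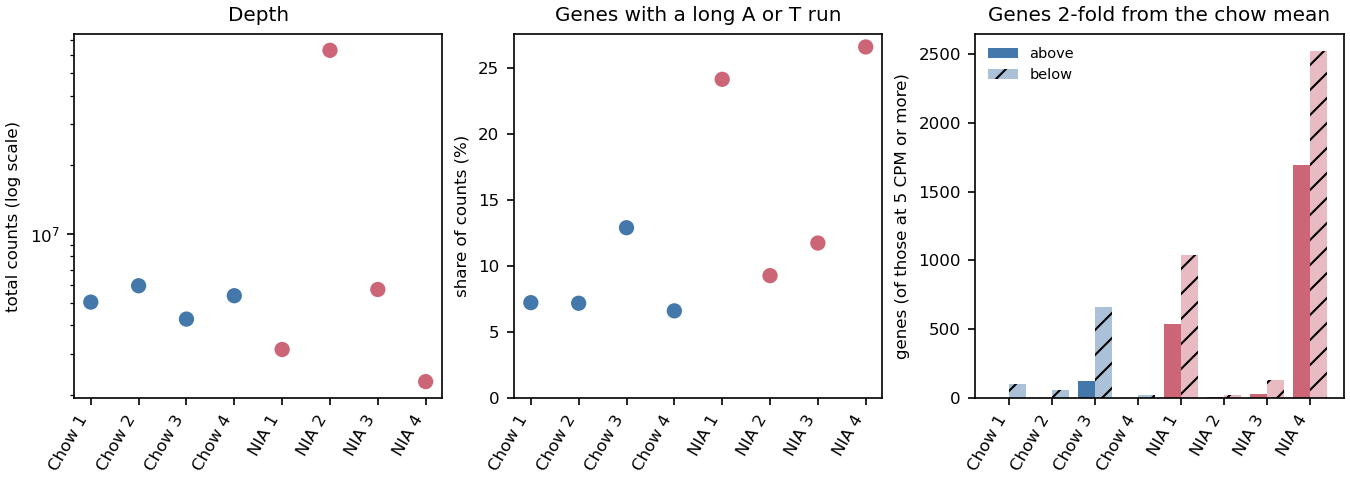
Each chow (blue) and NIA (red) animal: total counts on a log axis, share of counts in percent on genes with 25 or more A or T in a row, and number of genes over 2-fold above (solid bars) or below (hatched bars) the mean of the 4 chow animals. NIA 2 is the deepest library, NIA 1 and NIA 4 are the highest in the share of counts on such genes, and NIA 4 has the most genes far from chow.

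Of the 127 genes that DESeq2 called (below), 65 hold a long unbroken run of A or T in a transcript. The runs of 7 named genes are shown to make that shared feature visible, as 30 bases read from the transcripts of GENCODE vM21 (mm10), 5′ to 3′ on the transcript strand. The first 8 bases are flank in lower case, and capitals mark the start of the run, whose full length is given.
Atxn1, a run of 29 T, chr13:45556320-45556348, minus strand, 3′ UTR: ttttgttcTTTTTTTTTTTTTTTTTTTTTT
Cdh6, a run of 30 A, chr15:13033370-13033399, minus strand, 3′ UTR: agctttacAAAAAAAAAAAAAAAAAAAAAA
Plau, a run of 38 T, chr14:20843200-20843237, plus strand, 3′ UTR: cagttatcTTTTTTTTTTTTTTTTTTTTTT
Bhlhe41, a run of 39 T, chr6:145862019-145862057, minus strand, 3′ UTR: aacattacTTTTTTTTTTTTTTTTTTTTTT
Gsk3b, a run of 30 T, chr16:38244370-38244399, plus strand, 3′ UTR: tttaagtcTTTTTTTTTTTTTTTTTTTTTT
Rbm45, a run of 30 T, chr2:76383536-76383565, plus strand, 3′ UTR: ttgacagcTTTTTTTTTTTTTTTTTTTTTT
Eva1c, a run of 27 A, chr16:90826818-90826844, plus strand, exon of a transcript with no coding part: atcttaacAAAAAAAAAAAAAAAAAAAAAA

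Genes with such a run of at least 25 bases numbered 447 in the annotation, of which 409 were tested, 3.08% of the tested genes with a transcript. They took 6.61% to 12.9% of all counts in chow, against 24.2% in NIA 1, 9.28% in NIA 2, 11.8% in NIA 3 and 26.6% in NIA 4. NIA 1 and NIA 4 lay far above every chow animal, and NIA 2 and NIA 3 lay below chow 3.

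No gene passed an adjusted p of 0.05 for NIA minus chow in edgeR's quasi-likelihood test (0 of 13381 tested genes, 0%). At an unadjusted p under 0.05 there were 1164 genes (8.7%), of which 872 (6.52%) had a higher and 292 (2.18%) a lower mean on NIA. Without NIA 4 this number was 507, with 314 higher and 193 lower, and without NIA 1 and NIA 4 together it was 273, with 129 higher and 144 lower. DESeq2 called 127 of the 2995 genes to which it gave an adjusted p (4.24%), 126 of them higher on NIA, and 65 of the 127 (51.2%) hold a long A or T run. limma-voom with a quality weight per library, which gave NIA 4 a weight of 0.16 and NIA 1 a weight of 0.301, called 28 genes (0.209%), 17 higher and 11 lower. A call by one of these tools is therefore named as that tool's below, and a gene with no call is given by its values.

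A description that does not let the extreme animals set the size is whether the 4 NIA animals lay wholly above or wholly below the 4 chow animals. All 4 NIA animals lay above all chow animals in 176 of 13381 genes (1.32%) and below them in 256 (1.91%), together 3.23%. With 4 animals against 4, some genes lie apart in this way by chance alone. The shares were not tested against that rate, so that a gene without overlap is described and not called. NIA 4 was the highest of the NIA animals in 145 of the 176 and the lowest in 203 of the 256.

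The gene with the smallest p among the lower genes named by rule was Cmtr1, the enzyme that methylates the first transcribed nucleotide of the mRNA cap (chromosome 17, 29660595 to 29705980, mm10). It was at 59.9, 52.0, 34.7 and 46.8 CPM in chow animals 1 to 4 and at 25.6, 24.1, 26.1 and 14.9 CPM in NIA animals 1 to 4. Every NIA animal lay below the lowest chow animal, chow 3, and 3 of the 4 NIA animals lay within a narrow band. The log2 fold change was -1.07 ± 0.22 (SE; 95% confidence interval -1.53 to -0.60), with an edgeR p of 0.000125 and an adjusted p of 0.343. limma-voom with quality weights called Cmtr1 (adjusted p = 0.0075), as did edgeR without the 4 libraries of a weight under 0.5. These are chow 3, NIA 1, NIA 4 and mNIA 2, so that fit sets NIA 2 and NIA 3 against chow 1, 2 and 4. The adjusted p of Cmtr1 ran up to 1 over the 22 alternatives. The fold change itself stayed between -1.19 and -0.95 in all 22, so that it was nearly as large without NIA 4 (-0.95) and without NIA 1 and NIA 4 (-0.96).

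Zfp526, a zinc finger gene (chromosome 7, 25221425 to 25227496), was at 5.66, 6.10, 5.89 and 5.74 CPM in chow and at 2.94, 3.47, 3.18 and 1.42 CPM in NIA. The chow animals hardly differed and all NIA animals lay below them, although the value of NIA 4 is under its floor of 3 counts. Its log2 fold change was -0.94 ± 0.25 (adjusted p = 0.343 in edgeR) and -0.84 without NIA 4. limma-voom called it (adjusted p = 0.0317, with values up to 1 over the alternatives).

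Nfkb2, which encodes the p100 precursor of the noncanonical NF-kappaB pathway, was at 24.0, 23.8, 24.1 and 24.8 CPM in chow and at 12.2, 17.8, 18.1 and 10.7 CPM in NIA (log2 fold change -0.66 ± 0.19). Apc2, a relative of the Wnt pathway scaffold Apc, was at 7.22, 7.87, 9.62 and 8.78 CPM in chow and at 2.94, 5.39, 3.85 and 3.56 CPM in NIA (-0.98 ± 0.27). In both genes the groups were apart in every animal, and NIA 4 was not the lowest animal for Apc2. Neither passed in edgeR (adjusted p = 0.368 and 0.346), and the fold changes without NIA 4 were -0.57 and -0.93.

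The other lower genes named by p or by the gap between the groups serve different tasks. Those named by the gap are apart in every animal by the rule itself, and 2 of those named by p alone overlapped. Dhx8, a spliceosomal helicase, was at 20.4 to 27.0 CPM in chow and 7.11 to 17.2 CPM in NIA, and Zc3h4, a zinc finger protein that limits transcription of unproductive RNA, at 42.7 to 46.5 and 14.9 to 35.0 CPM. Pomt2, which starts O-mannosylation of dystroglycan, was at 15.5 to 19.4 CPM in chow and 6.40 to 12.8 CPM in NIA. Ano8, of the anoctamin family, was at 23.2 to 30.1 CPM and 9.25 to 19.7 CPM, and Atg2a, a lipid transfer protein of autophagy, at 40.2 to 47.1 and 14.9 to 34.3 CPM. These ranges did not touch.

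Aars2, the mitochondrial alanyl-tRNA synthetase, was at 21.6 to 27.2 CPM in chow and 11.4 to 17.6 CPM in NIA. Naglu, a lysosomal enzyme of heparan sulfate breakdown, was at 11.4 to 14.4 and 5.87 to 9.04 CPM, with NIA 1 the lowest, and the zinc finger gene Zfp641 at 9.79 to 11.2 and 5.45 to 7.68 CPM. Aldh1l1, a folate enzyme, was at 5.27 to 7.85 CPM in chow and at 2.52, 4.10 and 3.85 CPM in NIA 1 to 3, with no count in NIA 4, which allows up to 2.13 CPM there. The exceptions were Cad, the first enzyme of pyrimidine synthesis (14.9 to 20.4 against 5.69 to 15.3 CPM), and Galnt15, a glycosyltransferase (9.76 to 15.9 against 4.27 to 10.1 CPM), whose ranges overlapped. edgeR without NIA 2 called Cad. Over the genes of these last paragraphs, from Dhx8 to Galnt15, the log2 fold changes in edgeR lay between -0.97 and -0.56, and none passed.

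The higher genes named by rule that hold no long run begin with 2 genes of mitochondrial proteins. Usmg5, a small subunit of the mitochondrial ATP synthase (chromosome 19, 47083471 to 47090648), was at 381, 409, 348 and 346 CPM in chow and at 1128, 507, 590 and 3623 CPM in NIA. All NIA animals were above chow, but NIA 4 was several times above the others. The log2 fold change of 1.98 ± 0.48 (adjusted p = 0.343) was 1.00 without NIA 4 and 0.55 without NIA 1 and NIA 4. Dnajc15, a J-protein of the inner mitochondrial membrane, had the same order among the NIA animals: 65.6, 72.1, 57.3 and 58.3 CPM in chow and 146, 85.0, 96.6 and 741 CPM in NIA (2.06 ± 0.51, and 0.77 without NIA 4). DESeq2 called both (adjusted p = 0.00461 each), and their edgeR adjusted p ran up to 1 over the alternatives.

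Tmed5, a cargo receptor between the endoplasmic reticulum and the Golgi (chromosome 5, 108121556 to 108132621), was at 51.1, 56.0, 70.1 and 50.8 CPM in chow and at 120, 83.2, 85.0 and 139 CPM in NIA. It differed less between the NIA animals, and the fold change of 0.89 ± 0.22 (adjusted p = 0.343 in edgeR, 0.00488 in DESeq2) was 0.75 without NIA 4. Fam45a was at 13.005 to 14.7 CPM in chow and 17.4 to 26.3 CPM in NIA (0.64 ± 0.17, and 0.54 without NIA 4). Smim15, a small membrane protein gene, was at 16.7 to 19.1 CPM in chow and 23.1 to 50.5 CPM in NIA (0.76 ± 0.22, and 0.48 without NIA 4). Bclaf3 was at 2.73 to 4.12 CPM in chow and 4.98 to 6.47 CPM in NIA, and its fold change was as large without NIA 4 (0.65) as with it (0.61).

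Hnrnpa1, an RNA-binding protein of splicing, was at 64.4 to 74.2 CPM in chow and 90.0 to 113 CPM in NIA. Hscb, a co-chaperone of iron-sulfur cluster assembly, was at 6.90 to 9.03 CPM in chow and at 11.7, 10.9, 12.7 and 42.0 CPM in NIA, so that 3 animals were close to each other and NIA 4 stood apart. Tceal8 was at 9.42 to 11.1 and 13.2 to 33.4 CPM. Gng5-ps, a pseudogene, was at 25.3 to 35.0 and 42.8 to 188 CPM, and may share reads with Gng5. Sp3os, an RNA antisense to Sp3, was at 5.78 to 6.87 and 8.20 to 19.9 CPM, and whether the authors' counting kept strand is not given in the sources used here, so reads of Sp3 may enter it.

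**Figure D2:**
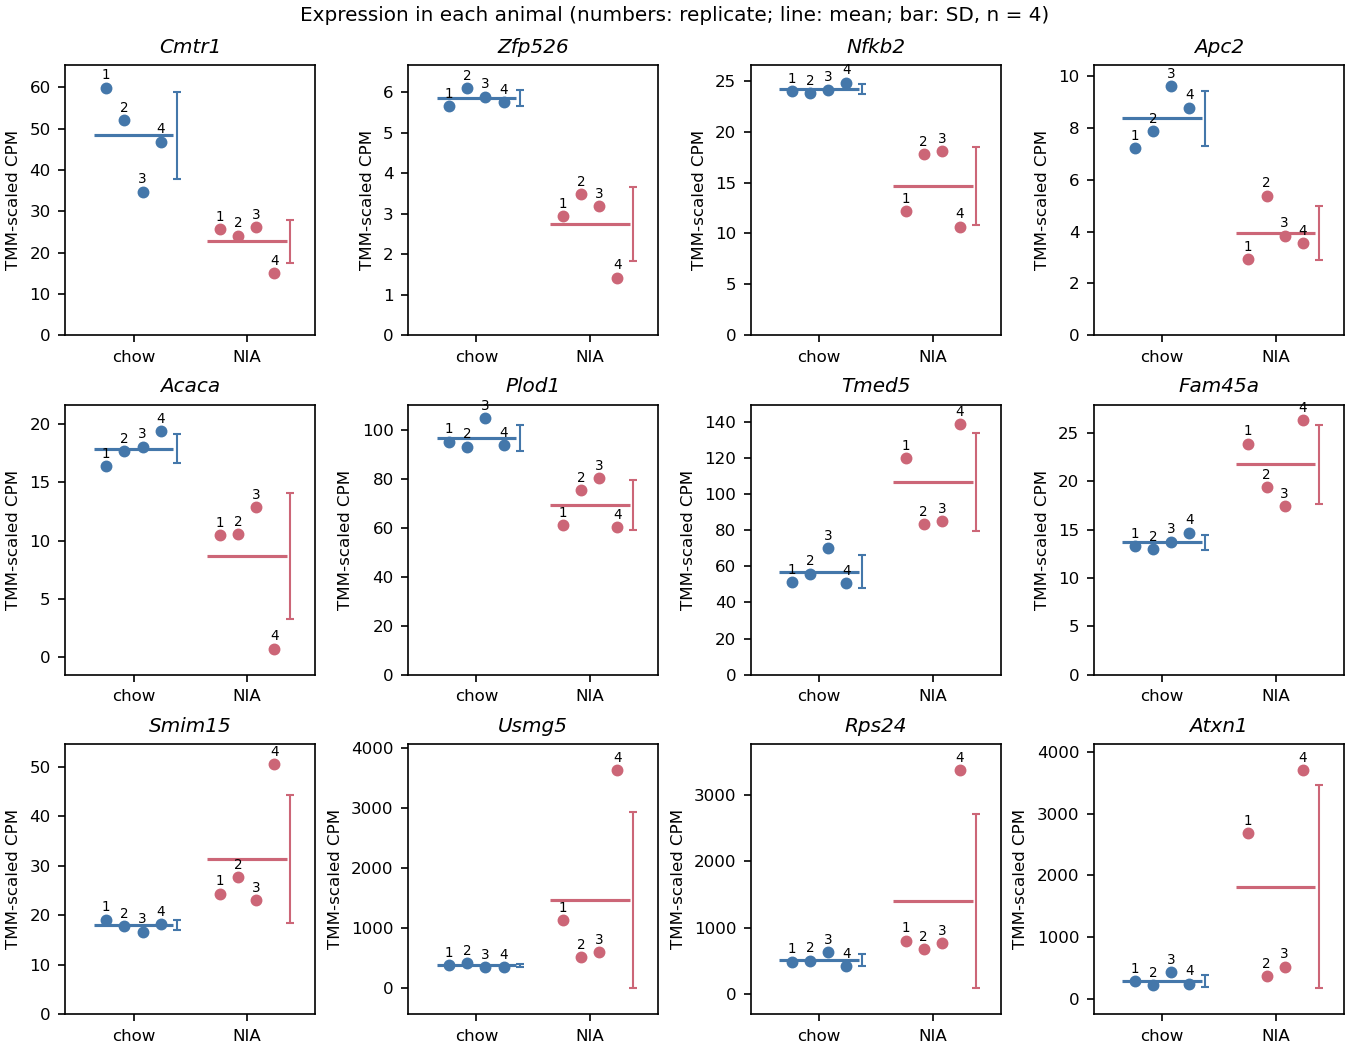
TMM-scaled CPM of 12 genes in each chow (blue) and NIA (red) animal, numbered by replicate, with the group mean (line) and SD (bar, n = 4). Cmtr1, Zfp526, Nfkb2, Apc2, Acaca and Plod1 are lower in all 4 NIA animals, Tmed5, Fam45a, Smim15, Usmg5 and Rps24 are higher in all 4, and Atxn1 is high in NIA 1 and NIA 4.

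In the genes whose runs are printed above, NIA 1 and NIA 4 were high together while NIA 2 and NIA 3 lay near chow. Atxn1, which encodes ataxin 1, was at 282, 218, 431 and 244 CPM in chow and at 2683, 362, 521 and 3698 CPM in NIA. Its log2 fold change of 2.63 ± 0.65 (adjusted p = 0.343 in edgeR, 0.00461 in DESeq2) was 0.59 without NIA 1 and NIA 4. Cdh6, a cadherin, was at 26.9, 31.1, 53.6 and 23.1 CPM in chow and at 258, 36.2, 67.8 and 343 CPM in NIA, and Plau, the urokinase that activates plasminogen, at 39.8, 35.5, 64.4 and 33.3 against 290, 57.8, 62.8 and 363 CPM. In all 3 genes NIA 2 lay below chow 3, so the groups overlapped.

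Bhlhe41, a repressor of the circadian clock, was at 373 to 706 CPM in chow and at 3639.7, 483, 768 and 4481 CPM in NIA. Gsk3b, the kinase that insulin signalling inhibits, was at 130 to 208 CPM in chow and at 819, 140, 231 and 908 CPM in NIA. Rbm45, an RNA-binding protein, and Eva1c were apart between the groups, by a small margin in NIA 2: Rbm45 was at 26.8 to 29.5 CPM in chow and at 138, 30.5, 42.8 and 144 CPM in NIA, and Eva1c at 3.55 to 7.66 and at 60.8, 7.78, 12.0 and 90.3 CPM. Pou3f2, a transcription factor of neurons, has a run of 16 bases only and showed the same order among the NIA animals, at 36.5 to 74.2 CPM in chow and 514, 58.4, 94.5 and 654 CPM in NIA. Over the 409 tested run genes, 259 had a higher mean on NIA, 126 had a p under 0.05 and a higher mean, 7 had a p under 0.05 and a lower mean, and the median log2 fold change was 0.19, against -0.01 over all tested genes. Without NIA 2 edgeR called 116 genes, 85 of them run genes. With the run genes removed, edgeR called 0 genes and 1110 had an unadjusted p under 0.05, 844 higher and 266 lower on NIA. The share of counts on run genes includes the counts of the run genes named above, but not those of Pou3f2. That share and these run genes therefore move together in part by construction. The part of long runs in the values was not tested.

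The genes without overlap also differed from the rest in transcript length and base composition. The longest transcript of the genes higher in all 4 NIA animals had a median of 2080 bases and 44.6% GC, that of the genes lower in all 4 had 4580 bases and 54.7% GC, and that of all tested genes 3424 bases and 49.6% GC. Run genes made up 2.87% of the higher and 2.76% of the lower ones, close to the 3.08% among all. Across genes, the level of NIA 4 relative to the mean of all 16 libraries went down with transcript length (Spearman rho -0.467), as did NIA 3 (-0.21) and NIA 2 (-0.185), while NIA 1 went up with it (0.17). In chow the values were -0.0342 to 0.082, in UW 0.073 to 0.469 and in mNIA -0.194 to 0.347, so trends with length were not particular to NIA. Against GC content the values were 0.204 to 0.3 in chow and -0.389 in NIA 1, 0.0599 in NIA 2, 0.217 in NIA 3 and -0.148 in NIA 4. In UW they ran from -0.157 to 0.179 and in mNIA from -0.261 to 0.155. Genes are not independent replicates, and the part of length and GC in the gene differences was not tested.

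**Figure D3:**
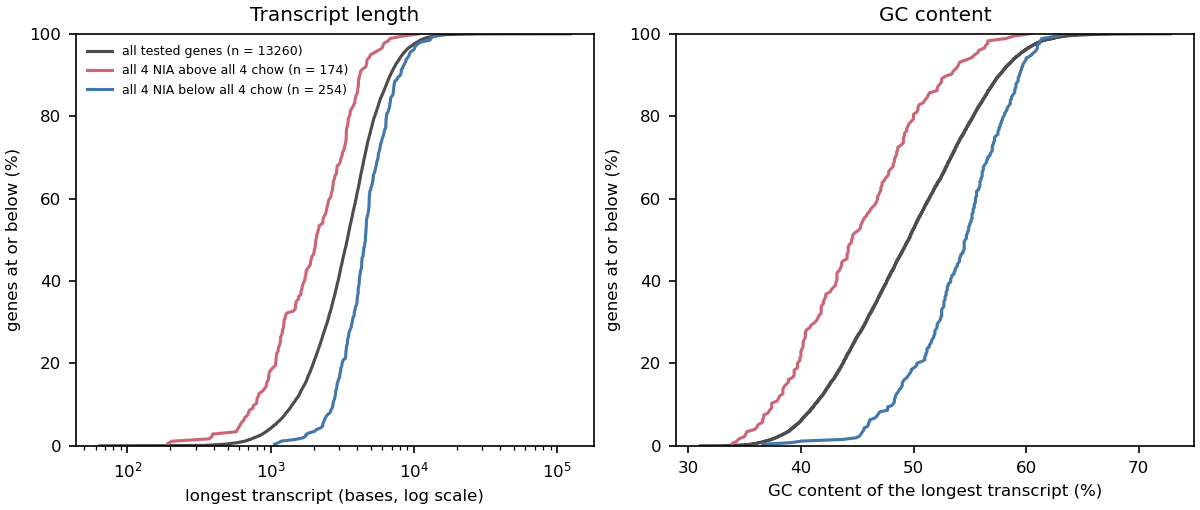
Cumulative share of genes (%) by length of the longest transcript in bases (log axis) and by its GC content (%), for all tested genes (grey), genes higher in all 4 NIA animals (red) and genes lower in all 4 (blue). The red curves lie towards shorter transcripts of lower GC content and the blue curves towards longer ones of higher GC content.

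Against the 8 animals on the other primate formulas, 0 genes passed in edgeR for NIA minus the mean of UW and mNIA (0%), with 2048 at an unadjusted p under 0.05 (15.3%). All 4 NIA animals lay above all 12 other animals in 9 genes (0.0673%) and below them in 40 (0.299%), and the 40 include Cmtr1, Zfp526, Dhx8, Pomt2, Atg2a, Aars2, Acaca and Lamb2. Nfkb2, Apc2, Ano8, Zc3h4, Naglu, Zfp641, Aldh1l1, Plod1 and Tsc1, lower in all 4 NIA animals than in chow, are not among the 40 and overlapped UW or mNIA. Cmtr1 ran from 37.7 to 54.2 CPM in UW and from 39.2 to 57.6 CPM in mNIA, above the 26.1 CPM of the highest NIA animal (log2 fold change against both formulas -1.01, edgeR adjusted p = 0.0924). Zfp526 ran from 4.67 to 7.72 CPM in UW and from 5.61 to 6.49 CPM in mNIA (-1.03, adjusted p = 0.0924). Of the higher genes named here with no overlap against chow, Sp3os alone was also above all 12 other animals, and the rest overlapped UW or mNIA.

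Phtf1os, a non-coding RNA opposite Phtf1, and Gdf10, a BMP family ligand, fell below the CPM limit of the rule and were chosen after their values were seen. Phtf1os had the smallest p of all genes tested (1.05e-05, edgeR adjusted p = 0.141) at very low levels, with no count in chow 1 to 3, 0.338 CPM in chow 4 and 2.10, 1.97, 2.18 and 0.711 CPM in NIA. The value of NIA 4 is a single count, under its floor of 3 counts. The mean of Phtf1os in mNIA was 2.43 CPM. Gdf10 was at 3.71, 3.21, 6.09 and 5.41 CPM in chow and at 0.839, 1.49, 1.17 and 2.84 CPM in NIA, with all NIA animals lower. The Gdf10 value of NIA 1 is under its floor of 3 counts, 1.26 CPM. limma-voom called both Phtf1os and Gdf10.

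Gene groups are described by counts, by the median log2 fold change of their tested members and by a level in each animal, for which log2 CPM was set against the average of the 4 chow animals and the median taken over members. For reference, 48.6% of all tested genes had a higher and 51.4% a lower mean on NIA, with a median log2 fold change of -0.01. The level over all tested genes was between -0.18 and 0.04 in the 8 animals. An unadjusted p under 0.05 with a higher mean was reached by 6.52% of all tested genes, and 1.32% were above all chow animals. With a lower mean it was 2.18%, and 1.91% were below all chow animals. No member of any group passed in edgeR. The sign of the median was the same in all 22 alternatives for 15 of the 36 groups: ribosomal proteins, oxidative phosphorylation, fatty acid and cholesterol synthesis, LXR targets, glucose use, collagen, basement membrane, profibrotic signalling, calcium cycling, glucocorticoid response, immediate early genes, insulin signalling, aryl hydrocarbon and retinoid genes, nuclear-retained RNAs and pericyte markers. In the other 21 it turned in at least 1.

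Proteins of the cytosolic ribosome had the highest median of the 36 groups with at least 10 tested members. Of 79 ribosomal protein genes, 78 had a higher mean on NIA, 40 of them at an unadjusted p under 0.05, and 9 were higher in all 4 NIA animals (median log2 fold change 0.73). By animal the level was -0.25 in NIA 1, 0.30 in NIA 2, 0.44 in NIA 3 and 1.73 in NIA 4, against -0.23 to 0.31 in chow. NIA 4 stood alone, NIA 3 was above chow and NIA 1 was below every chow animal, and without NIA 4 the median was 0.18. The small subunit (median 0.76, 32 of 32 genes higher) and the large subunit (0.71, 46 of 47) were alike. Rps24 was at 486, 500, 625 and 419 CPM in chow and at 802, 670, 761 and 3375 CPM in NIA (1.46 ± 0.43, adjusted p = 0.372, and 0.56 without NIA 4), with no overlap. Rpl35 was at 174 to 290 CPM in chow and at 351, 255, 328 and 1479 CPM in NIA, and NIA 2 overlapped chow. Ribosomal proteins have many near-identical pseudogenes, so their counts are uncertain where reads were split.

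Nuclear genes of oxidative phosphorylation showed the same order among the NIA animals. Of 80 members 73 had a higher mean, 34 at an unadjusted p under 0.05, and 7 were higher in all 4 NIA animals (median 0.67, and 0.11 without NIA 4). The level was -0.09, 0.01, 0.41 and 1.604 in NIA 1 to 4 against -0.08 to 0.04 in chow, so NIA 2 was within chow, NIA 1 just below it and NIA 3 and NIA 4 above it. By complex, the medians were 0.66 for complex I, 0.29 for complex II, 0.51 for complex III, 0.89 for complex IV with cytochrome c and 0.70 for the ATP synthase. Ndufb4, of complex I, was at 157, 146, 145 and 130 CPM in chow and 217, 185, 193 and 1051 CPM in NIA (1.503 ± 0.44, adjusted p = 0.368, and 0.46 without NIA 4). It was higher in all 4 NIA animals, 3 of them by a small margin.

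Mitochondrial ribosomal proteins followed with 40 of 41 members higher and a median of 0.39, which was 0.05 without NIA 4. Mrpl42 was at 163 to 302 CPM in chow and 433, 310, 266 and 1186 CPM in NIA, and Mrpl34 at 30.4 to 43.0 and 51.6, 41.1, 45.5 and 147 CPM. The proteasome had 25 of 31 members higher (median 0.28, and 0.05 without NIA 4) and the translation factors 16 of 24 (0.18, and 0.12). In the 3 groups, the levels of NIA 1 to 3 lay between -0.14 and 0.30.

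Genes of fuel use depended on chow 3 as well as on NIA 4. Of 25 citric acid cycle and pyruvate genes 19 had a higher mean (median 0.16), but chow 3 had a level of -1.07 where the other chow animals had 0.25 to 0.43, and without chow 3 the median was -0.10. The level was 0.66 in NIA 1, -0.20 in NIA 2, -0.24 in NIA 3 and 0.57 in NIA 4, so NIA 1 and NIA 4 were above every chow animal and NIA 2 and NIA 3 lay between chow 3 and the other chow animals. Mpc1 and Mpc2 form the carrier that brings pyruvate into mitochondria: Mpc1 was at 417, 403, 160 and 386 CPM in chow and 716, 491, 319 and 1767 CPM in NIA, and Mpc2 at 219 to 334 and at 252, 360, 348 and 1179.9 CPM. In fatty acid oxidation and PPAR targets 27 of 37 genes had a higher mean (median 0.23), the median was 0.02 without NIA 4 and 0.00 without chow 3.

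Pdk4, the kinase that shuts pyruvate out of oxidation and a PPAR target, was at 322, 351, 70.9 and 202 CPM in chow and 1156, 308, 185 and 530 CPM in NIA (log2 fold change 1.20 ± 0.70, adjusted p = 0.634). It was high in NIA 1 and low in chow 3, and NIA 2 and NIA 3 lay within chow. Acot2, a mitochondrial thioesterase, was at 60.3 to 96.4 CPM in chow and at 180, 91.7, 87.5 and 180 CPM in NIA. Cpt1b, which starts fatty acid entry into mitochondria, was at 642 to 826 and 560 to 744 CPM (-0.20 ± 0.24), and Ucp3, a mitochondrial uncoupling protein, at 59.1 to 80.8 and 51.2 to 107 CPM (0.04 ± 0.38). All of these ranges overlapped, the direction for Ucp3 turned under other settings, and Pdk4 and Acot2 turned to -0.26 and -0.070 without the 4 libraries of low weight.

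For glucose, 14 of 22 genes of uptake and glycolysis had a lower mean (median -0.13). Slc2a4, the insulin-responsive glucose carrier, was at 452, 447, 226 and 403 CPM in chow and 312, 291, 309 and 476 CPM in NIA, with chow 3 and NIA 4 each apart from its own group. Txnip, which restrains glucose uptake, was at 428 to 722 CPM in chow and 481, 489, 343 and 220 CPM in NIA (-0.53 ± 0.29, adjusted p = 0.613). Of 25 genes of insulin signalling and FoxO 20 had a lower mean (median -0.16), among them Tsc1, a brake on mTORC1, at 34.7 to 44.8 CPM in chow and 32.3, 28.5, 29.8 and 19.2 CPM in NIA. All 4 NIA animals were below chow for Tsc1 (-0.44 ± 0.22, adjusted p = 0.578).

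Fatty acid and cholesterol synthesis was among the groups whose median kept its direction in all 22 alternatives, between -0.29 and -0.12. Of 33 tested genes 23 had a lower mean (median -0.21), and the level was -0.34, -0.10, -0.08 and -0.38 in NIA 1 to 4 against -0.05 to 0.08 in chow, lower in all 4 NIA animals. Acaca, the acetyl-CoA carboxylase that commits carbon to fatty acids (chromosome 11, 84195438 to 84401652), was at 16.4, 17.7, 18.1 and 19.4 CPM in chow and 10.5, 10.5, 12.9 and 0.711 CPM in NIA. NIA 4 holds a single count of this long transcript, and the 3 other NIA animals lay close together below chow. The log2 fold change was -0.90 ± 0.32 (adjusted p = 0.451 in edgeR) and -0.67 without NIA 4. Acaca ran from 18.1 to 26.1 CPM in UW and from 14.1 to 20.6 CPM in mNIA.

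Srebf2, the regulator of cholesterol synthesis, was at 18.6 to 23.6 CPM in chow and 13.4, 19.0, 14.6 and 7.11 CPM in NIA (-0.55 ± 0.22, adjusted p = 0.487). Scd1, a desaturase of fatty acids, was at 19.2 to 22.97 CPM in chow and 19.9 to 21.8 CPM in NIA (-0.07 ± 0.17). Abca1, the LXR target that exports cholesterol, was at 26.0 to 35.3 CPM in chow and 56.6, 39.9, 45.0 and 28.4 CPM in NIA, where 3 animals were above chow and NIA 4 within it (0.44 ± 0.21, adjusted p = 0.562). Its 10-gene group had a median of 0.17 with 6 members higher. G0s2, an inhibitor of the fat lipase Pnpla2, was at 24.8 to 29.9 CPM in chow and 34.8, 30.2, 32.5 and 107 CPM in NIA. Its group of uptake and droplet genes had a median of 0.16 with 13 of 23 higher, and of 0.03 without NIA 4. In that group 1 gene, G0s2, was higher and 2 were lower in all 4 NIA animals, against 1.32% and 1.91% of all tested genes.

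Genes of the basement membrane had a lower mean in 20 of 23 members (median -0.34), and the median stayed between -0.67 and -0.17 in all 22 alternatives. The level was -0.10, -0.30, -0.07 and -1.45 in NIA 1 to 4 against -0.13 to 0.27 in chow, so only NIA 2 and NIA 4 were below every chow animal. Lamb2, the laminin beta 2 chain (chromosome 9, 108479862 to 108490531), was at 357, 350, 337 and 382 CPM in chow and 264, 264, 292 and 142 CPM in NIA. All NIA animals were lower, 3 of them within a narrow band (-0.56 ± 0.22, adjusted p = 0.481, and -0.39 without NIA 4), and DESeq2 called it as its single lower gene (adjusted p = 0.0344, up to 1 over the alternatives). Hspg2, the heparan sulfate proteoglycan perlecan, was at 544, 559, 951 and 687 CPM in chow and 338, 439, 618 and 83.2 CPM in NIA, with NIA 3 inside chow (-0.89 ± 0.41, adjusted p = 0.552).

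Interstitial collagen, the tissue mark of fibrosis, had a lower mean in 22 of 28 genes of its chains and processing (median -0.21, and -0.11 without NIA 4). The level was -0.23, -0.15, 0.08 and -1.10 in NIA 1 to 4 against -0.11 to 0.14 in chow. Plod1, which hydroxylates collagen lysines (chromosome 4, 147909753 to 147936777), was at 95.4, 93.3, 105 and 94.1 CPM in chow and 61.2, 75.5, 80.5 and 60.5 CPM in NIA. It was lower in all 4 NIA animals, with NIA 1 and NIA 4 alike (-0.47 ± 0.17, adjusted p = 0.468, and -0.42 without NIA 4). P3h1, a collagen prolyl hydroxylase, was at 13.5 to 18.8 and 7.11 to 14.0 CPM. Over all tested genes 1.91% were below all chow animals in all 4 NIA animals. Of the 7 tested chains outside the fibrillar types, Col6a2 and Col6a3, chains of the microfibrillar collagen VI, were lower in all 4 NIA animals. They are named after their values were seen: Col6a2 was at 92.5 to 118 CPM in chow and 88.1, 90.0, 74.5 and 39.1 CPM in NIA, and Col6a3 at 42.6 to 53.2 and 39.8, 41.1, 42.5 and 12.8 CPM. None of the 6 fibrillar chains was apart between the groups: Col1a1 was at 124, 143, 165 and 118 CPM in chow and 150, 118, 132 and 41.2 CPM in NIA (-0.30 ± 0.31), Col1a2 at 122 to 173 and 119, 122, 110 and 46.9 CPM, and Col3a1 at 206 to 289 and 254, 227, 240 and 150 CPM (-0.20 ± 0.26). For each of these 3 chains NIA 4 was the lowest of the 8 animals.

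Signals and matricellular proteins of fibrosis had a lower mean in 22 of 33 genes (median -0.16, and -0.07 without NIA 4). Tgfb1, the main profibrotic cytokine, was at 35.5, 34.2, 51.8 and 30.6 CPM in chow and 21.0, 38.4, 50.2 and 31.3 CPM in NIA (-0.09 ± 0.26). Ctgf, its target, was at 40.04 to 46.3 and 42.0 to 65.6 CPM (0.31 ± 0.28), and Postn, made by activated fibroblasts, at 41.8 to 52.4 and 33.0 to 55.9 CPM (-0.12 ± 0.21). Ltbp4, which stores latent TGF-beta, was at 342 to 449 CPM in chow and 180, 351, 315 and 81.1 CPM in NIA, and Thbs1, which activates it, at 12.1 to 27.3 and 16.4, 12.6, 11.2 and 4.27 CPM. Timp1, the protease inhibitor of the matrix, was at 1.95, 4.98, 10.6 and 1.86 CPM in chow and 2.52, 4.10, 5.86 and 3.56 CPM in NIA, and the direction for Tgfb1 and Timp1 turned without chow 3. The groups overlapped in every one of these genes, and 17 of 28 genes of matrix turnover had a lower mean (median -0.09, and 0.03 without NIA 4).

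Of 16 tested cardiac stress genes 12 had a higher mean (median 0.14, which was 0.01 without chow 3 and -0.14 without NIA 1 and NIA 4). Nppb, the ventricular natriuretic peptide, was at 103, 144, 165 and 117 CPM in chow and 148, 145, 235 and 633 CPM in NIA (1.13 ± 0.43, adjusted p = 0.475, and 0.42 without NIA 4). Nppa, the atrial one, had the opposite sign, at 83.9, 131, 223 and 115 CPM in chow and 62.9, 69.8, 133 and 108 CPM in NIA (-0.57 ± 0.33, adjusted p = 0.634). Both overlapped between the groups, Nppb through NIA 1 and NIA 2 and Nppa through NIA 3 and NIA 4.

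The sarcomere and Z-disc group showed no common direction, with 17 of 30 genes of a higher mean (median 0.03). Myh6, the fast myosin heavy chain of the adult mouse ventricle, was at 27134, 24377, 16293 and 26988 CPM in chow and 39844, 9662, 22779 and 5356 CPM in NIA, so NIA animals lay on both sides of chow. Myh7, the slow chain, had the same order among the NIA animals, at 3631, 3353, 3108 and 3655 CPM and 5224, 1636, 3864 and 988 CPM. Both had a lower mean (-0.29 ± 0.48 and -0.23 ± 0.41) that turned to 0.02 and 0.06 without NIA 4. Myoz2, a small Z-disc protein, was at 556 to 1026 CPM in chow and 1337, 1001, 1013 and 2419.5 CPM in NIA.

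Of 34 genes of calcium cycling and ion channels 21 had a lower mean (median -0.15). Atp2a2, the calcium pump of the sarcoplasmic reticulum, was at 15101, 13520.0, 2858 and 10572 CPM in chow and 14342, 7512, 4868 and 10886 CPM in NIA (-0.16 ± 0.48), and its direction turned without NIA 3 and without chow 1. Chow 3 was the lowest of the 8 animals. Trdn, which anchors the ryanodine receptor complex, was at 344 to 553 CPM in chow and 988, 467, 620 and 1025 CPM in NIA, and Camk2b, a calmodulin kinase, at 19.1 to 30.1 and 13.5 to 20.6 CPM.

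Immune groups were at lower levels in NIA 1 and NIA 4 than in NIA 2 and NIA 3. Of 45 interferon response genes 39 had a lower mean (median -0.26), with levels of -0.69, 0.02, 0.20 and -0.70 in NIA 1 to 4 and of 0.65 in chow 3 against -0.32 to -0.07 in the other chow animals. The median was 0.06 without chow 3 and 0.01 without NIA 1 and NIA 4. Antigen presentation had 20 of 28 members lower (median -0.19), with levels of -1.14, -0.07, 0.28 and -0.45, and its median turned to 0.02 without chow 3 and 0.03 without NIA 1 and NIA 4. Tap2, a subunit of the peptide transporter of antigen presentation, was at 35.6 to 57.3 CPM in chow and 15.1, 34.6, 38.2 and 10.7 CPM in NIA, and Psme1, a proteasome activator, had the opposite sign at 108 to 131 and 205, 101, 153 and 293 CPM. Gbp3, a guanylate-binding protein, was at 21.8 to 49.5 and 10.9 to 26.9 CPM and Parp9 at 22.6 to 35.7 and 18.9 to 25.8 CPM, both overlapping. Acute phase and complement genes were at a median of 0.10 with 14 of 22 higher.

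Among stress responses, 36 of 45 NRF2 targets and antioxidants had a higher mean (median 0.24, and 0.04 without NIA 4). Gstm5, a glutathione transferase, was at 37.9, 36.4, 29.4 and 36.8 CPM in chow and 48.2, 38.8, 49.2 and 94.6 CPM in NIA, higher in all 4 (0.68 ± 0.24, adjusted p = 0.451). Gsta4, of the same family, was at 47.5 to 85.0 and 143, 64.2, 90.7 and 198 CPM, overlapping in NIA 2. Of 28 chaperones 22 had a higher mean (median 0.11, and -0.12 without NIA 1 and NIA 4). Hspe1, the lid of the mitochondrial chaperonin, was at 100, 98.4, 77.3 and 97.5 CPM in chow and 187, 110, 106 and 661 CPM in NIA (1.498 ± 0.43, adjusted p = 0.368, and 0.20 without NIA 1 and NIA 4). Hspb6, a small heat shock protein of muscle, was at 523 to 1057 and 2845, 773, 920 and 2976 CPM. Genes of the unfolded protein response and ATF4 had no common direction (20 of 39 higher, median 0.01).

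The glucocorticoid response was one of the groups whose median did not rest on NIA 4. Of 26 targets 21 had a higher mean (median 0.23, 0.29 without NIA 4 and 0.30 without NIA 1 and NIA 4), and no member had an unadjusted p under 0.05. The level was 0.12, 0.13, 0.56 and 0.19 in NIA 1 to 4 against -0.11 to 0.15 in chow, so NIA 3 was furthest and NIA 1 and NIA 2 lay within chow. Immediate early genes, which respond within minutes to stimuli and handling, were at a median of 0.15 with 16 of 24 higher, and at 0.54 without chow 3, whose level of 0.82 was the highest of the 8 animals. NIA 2 and NIA 3 were at 0.59 and 0.61, NIA 1 and NIA 4 at -0.46 and -0.14. In the circadian clock 11 of 20 genes had a higher mean (median 0.03), with Cry2, a core repressor, at 40.01, 43.0, 23.6 and 42.6 CPM in chow and 26.0, 31.1, 30.1 and 19.9 CPM in NIA. Nuclear-retained RNAs (median 0.14, 6 of 10 higher) and aryl hydrocarbon and retinoid genes (0.15, 9 of 14) had levels in chow and NIA that overlapped.

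Markers of the vessel wall were lower mainly in NIA 4 and NIA 1. Of 18 endothelial markers 15 had a lower mean (median -0.33), with levels of -0.58, 0.04, 0.22 and -1.12 in NIA 1 to 4 and 0.56 in chow 3 against -0.25 to -0.07 in the other chow animals, and the median was 0.08 without NIA 1 and NIA 4. Cdh5, the endothelial cadherin, was at 317, 317, 516 and 359 CPM in chow and 308, 265, 353 and 95.3 CPM in NIA, and Flt1, a VEGF receptor, at 199 to 337 and 197, 205, 245 and 55.5 CPM. Of 15 pericyte and smooth muscle markers 12 had a lower mean (median -0.49, and -0.30 without NIA 4), with levels of -0.68, -0.31, 0.06 and -1.35. Cspg4, the NG2 proteoglycan, was at 25.6 to 33.6 CPM in chow and 13.8, 22.8, 27.1 and 4.27 CPM in NIA, and Pdgfrb, the pericyte growth factor receptor, at 76.6 to 118 and 58.3, 82.5, 84.8 and 21.3 CPM. The summed marker levels overlapped, at 3021 to 5497 CPM in chow and 2691 to 4314 CPM in NIA for endothelium and at 1756 to 2031 and 1572 to 1965 CPM for pericytes and smooth muscle. The basement membrane and collagen values above moved with these markers in NIA 4, and the part of cell make-up in them was not tested.

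Fibroblast markers were split. Of 16 markers 10 had a lower mean (median -0.15, and 0.04 without NIA 4), yet Dcn, the collagen-binding proteoglycan decorin, was at 524, 526, 473 and 494 CPM in chow and 628, 738, 554 and 908 CPM in NIA. All 4 NIA animals were higher for Dcn (0.49 ± 0.24, adjusted p = 0.578, and 0.34 without NIA 4). Of the 16 markers Dcn alone was higher in all 4, and 1 was lower in all 4. Summed fibroblast markers were at 2654 to 3118 CPM in chow and 2196 to 2952 CPM in NIA. Among 17 macrophage markers 12 had a higher mean (median 0.13, and 0.30 without NIA 1 and NIA 4), with levels of -0.51, 0.48, 0.17 and -0.27. Lyve1, of resident vessel-associated macrophages, was at 14.1, 14.3, 15.7 and 12.0 CPM in chow and 15.5, 26.1, 18.7 and 17.1 CPM in NIA (0.51 ± 0.22, adjusted p = 0.519), and Folr2, of the same cells, at 5.57 to 10.3 and 5.45, 12.2, 11.4 and 11.4 CPM. Summed macrophage markers were at 342 to 426 CPM in chow and 264 to 539 CPM in NIA, and those of red cells and platelets at 2612 to 6361 and 2189 to 7522 CPM (median 0.13, 8 of 14 higher). Cardiomyocyte markers were split, with 8 of 15 of a higher and 7 of a lower mean (median 0.38, and 0.02 without NIA 4). Their levels were 0.22, -0.42, 0.20 and 0.82 in NIA 1 to 4, against -0.26 to 0.14 in chow.

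**Figure D4:**
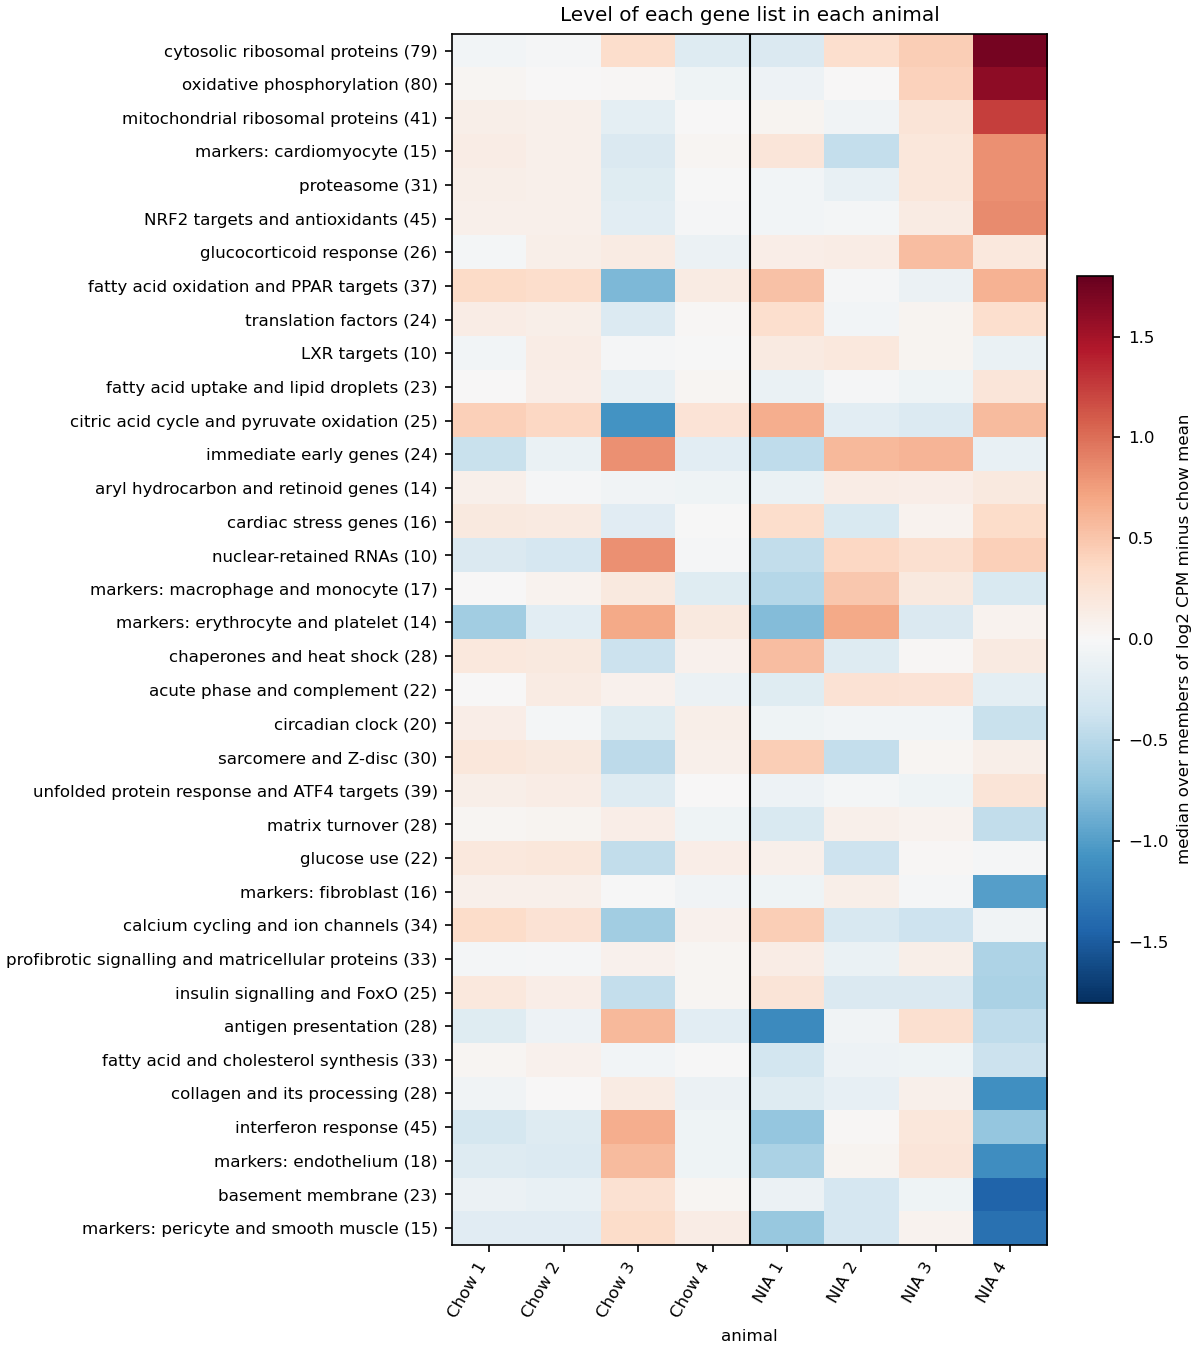
Level of each of the 36 groups with at least 10 tested genes (rows, number of genes in brackets, ordered by median log2 fold change) in each chow and NIA animal (columns), as the median difference of its genes from the chow average in log2 CPM. The strongest colours are in NIA 4, with ribosomal proteins at 1.73 and basement membrane at -1.45, and chow 3 differs from the other chow animals in the citric acid cycle at -1.07.

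**Figure D5:**
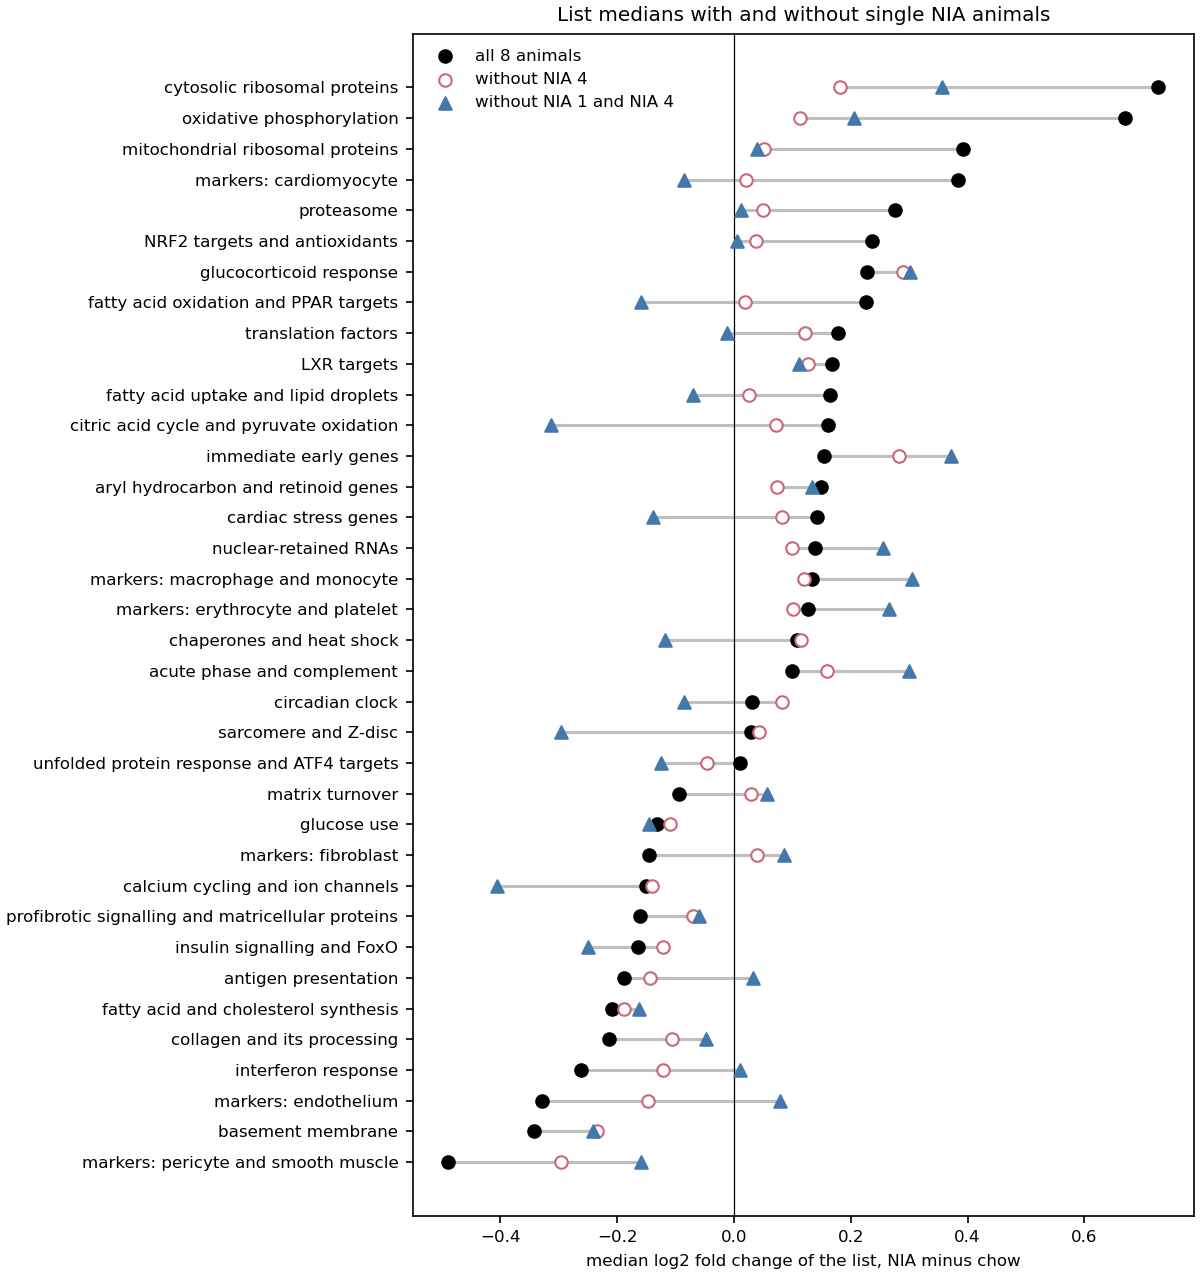
Median log2 fold change (NIA minus chow) of each of the 36 groups with all 8 animals (black), without NIA 4 (open circles) and without NIA 1 and NIA 4 (triangles). Ribosomal proteins go from 0.73 to 0.18 without NIA 4, while fatty acid and cholesterol synthesis goes from -0.21 to -0.19 and the glucocorticoid response from 0.23 to 0.29.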

How the data were processed

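Poly-A-selected, stranded libraries were made from RNA (integrity number above 7) of the lower ventricles of frozen heart pieces and sequenced from 1 end for 75 bases (NextSeq), per the labels' protocols. The authors deposited expected counts per gene, not scaled, and the submitters' processing notes name BWA, DESeq2 and mm10 without versions. The counting tool, gene models and strand setting are not given in the sources used here. Between 13.0% and 52.4% of a library's values were not whole, and all were rounded to whole counts.

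The file lists 17737 genes, and filterByExpr kept 13381 (75.4%). Libraries were scaled by TMM, and edgeR 4.0.16 (R 4.3.3) fitted a robust quasi-likelihood model with 1 mean per diet to all 16 libraries, and no covariate, as the labels name no batch. All tests are 2-sided, with Benjamini-Hochberg adjustment over all tested genes and a threshold of 0.05, and an adjusted p with no tool named is edgeR's. Group levels used log2 CPM with a prior count of 2. The 22 alternatives were other scalings and filters, DESeq2 1.42.0, limma 3.58.1 (voom with quality weights), a fit of 8 libraries, a block for replicate number, the 10 most abundant genes taken out, thinning of deeper libraries, removal of libraries singly and in sets and, chosen after seeing the data, removal of genes with a long A or T run. Runs, lengths and GC content came from GENCODE vM21, which matched 17460 genes (98.4%). Gene positions are on mm10.

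The named genes are the 10 higher and 10 lower genes of smallest p, the 10 of each direction with no overlap and the largest gap (both with at least 5 CPM in a group and no clone name), the 2 members of smallest p of each described list, and 20 fixed genes, of which 19 were tested. Some genes that these rules name are not reported here. The 8 lists with fewer than 10 tested members are not described. The comparison, the lists and the rules were chosen with earlier results of these data known. Floors cover counting error only, and depth limits low genes most in NIA 4.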

Additional observations from a re-analysis of the deposited data

Results flagged for a closer look

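Of 262 sets of 4 animals (1 measure in 1 diet group), 37 had an animal whose gap to the nearest other animal was larger than Dixon's 95% critical value allows for its share of the range. Chance flags about 1 in 20 groups, and the measures are not independent of each other.

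Among chow animals, chow 3 held most of the flags. Genes with a long A or T run took 12.9% of its counts, against 6.61% to 7.23% in the other chow animals. Its level was -1.07 for the citric acid cycle, -0.81 for fatty acid oxidation and PPAR targets, -0.44 for glucose use and 0.58 for antigen presentation. It was the lowest chow animal for Acot2 (60.3 CPM), Cry2 (23.6 CPM), Gstm5 (29.4 CPM), Hspe1 (77.3 CPM), Mpc1 (159.98 CPM, others 386 to 417), Mpc2 (219 CPM) and Slc2a4 (226 CPM). Chow 1 was low for Bclaf3 (2.73 CPM) and Galnt15 (9.76 CPM), and chow 4 was high for Tsc1 (44.8 CPM).

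NIA 2 stood apart in depth, with 63005490 counts against 2278250 to 5735110 in the other NIA animals. NIA 4 stood apart in the levels of basement membrane (-1.45), circadian clock (-0.40) and fibroblast markers (-0.99). It was the lowest NIA animal for Acaca (0.711 CPM), Aldh1l1 (0 CPM, no count), Cmtr1 (14.9 CPM), Col1a2 (46.9 CPM), Col6a3 (12.8 CPM), Dhx8 (7.11 CPM), Flt1 (55.5 CPM) and Lamb2 (142 CPM). It was the highest for G0s2 (107 CPM), Hscb (42.0 CPM), Ndufb4 (1051 CPM), Rps24 (3375 CPM), Slc2a4 (476 CPM) and Sp3os (19.9 CPM). NIA 3 was high for the glucocorticoid response (0.56), and NIA 1 was low for nuclear-retained RNAs (-0.44), Folr2 (5.45 CPM) and Naglu (5.87 CPM).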

How the results depend on the processing

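Of 92 named genes followed through the 22 alternatives, 77 kept the direction of their fold change in all and 15 turned in at least 1, and 21 were called in at least 1. Of 36 gene groups 15 kept the sign of their median in all. The number of genes called, 0 in the report, was 127 with DESeq2 and 28 with limma-voom. It was 224 (51 higher, 173 lower) without the 4 libraries of quality weight under 0.5 (chow 3, NIA 1, NIA 4 and mNIA 2). That setting keeps only NIA 2 and NIA 3 of the NIA animals. Leaving out 1 animal gave 0 to 116, the latter without NIA 2. The numbers with no overlap rose as animals were removed. Fewer animals must then be apart, and how much of the rise this makes was not tested. Genes higher in all NIA animals went from 176 to between 210 and 536 without 1 animal. They were 689 without NIA 1 and NIA 4, 911 without chow 3 and NIA 4 and 2976 without the low-weight libraries. Genes lower went from 256 to between 285 and 800, and in the same order to 643, 1253 and 3415. At an unadjusted p under 0.05, 1164 in the report, there were 507 genes without NIA 4, 544 with only the 8 libraries in the fit, 3042 without the low-weight libraries (39.7% higher) and 3245 with limma-voom (52.4% higher). Same-numbered chow and NIA animals had correlations of 0.281, -0.375, 0.607 and -0.0346, against -0.536 to 0.441 for differently numbered ones. Whether replicate numbers pair animals cannot be decided from 4 such values. With the replicate number as a block 0 genes were called, as without it, and 965 had a p under 0.05.

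Fold changes that turned were, without the low-weight libraries, Acot2 -0.070, Flt1 0.018, Gsta4 -0.091, Hspb6 -0.23, Mpc1 -0.00986, Pdk4 -0.26, Psme1 -0.038, Tgfb1 0.37, Timp1 0.66 and Ucp3 -0.45. With limma-voom they were Tgfb1 0.25, Timp1 0.49 and Ucp3 -0.32, and with the replicate block Ucp3 -0.00144. Without NIA 1 and NIA 4 they were Hspb6 -0.043, Tgfb1 0.21, Timp1 0.0089 and Ucp3 -0.37, and without chow 3 and NIA 4 Col1a1 0.043, Mpc2 -0.025, Tgfb1 0.14, Timp1 0.53 and Ucp3 -0.073. Without 1 animal, Atp2a2 ran from -0.48 to 0.064 and turned without chow 1 (0.064) and NIA 3 (0.053). Myh6 ran from -0.90 to 0.020 and Myh7 from -0.66 to 0.055, both turning without NIA 4. Tgfb1 ran from -0.31 to 0.12 and turned without chow 3 (0.10) and NIA 1 (0.12), and Timp1 ran from -0.47 to 0.51 and turned without chow 3. Ucp3 ran from -0.17 to 0.18 and turned without chow 3 (-0.039), chow 4 (-0.00177) and NIA 1 (-0.17). The cause was not tested.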
